A study of Mus musculus with 28 samples.

Results

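Amino acid transporters carry amino acids across the plasma membrane and the membranes of lysosomes. They were examined in mIMCD-3 cells, a renal epithelial line that was derived from the inner medulla of an SV40-transgenic mouse and stands for its collecting duct. The genes were chosen by symbol, as every gene of the Slc1a, Slc3a, Slc7a, Slc36a, Slc38a and Slc43a series, which gave 45 of the 45706 genes measured. RNA sequencing had been done on 28 libraries in 7 groups of 4, all taken 4 days after full confluency from untreated wild-type (WT) cells. Polyclonal WT was the mixed parental population. Monoclonal WT5 was grown from a lone sorted cell of it, and subclones 1 to 5 were each grown from a lone sorted cell of WT5. WT5 therefore stood for 1 clone, and each subclone for 1 clone of that clone. Polyclonal WT had been sequenced as short single-end reads and WT5 as longer paired-end reads at another time, so line and sequencing cannot be told apart in their comparison. The subclones came in a separate table, so a difference that all of them share from WT5 cannot be told apart from a difference between tables. The libraries were called biological replicates in the methods but technical in a legend, so p-values measure only the spread between these libraries.

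Values were TPM, a length-scaled share of all transcripts that keeps no read number, so the depth behind each value is unknown. Genes above 0 numbered 18681 to 19272 per library in polyclonal WT, 16318 to 16536 in WT5 and 16270 to 17004 in the subclones. The epithelial label was borne out by its markers, of which 9 of 9 averaged above 1 TPM in all 7 groups. The collecting duct label was not borne out by all of its markers, since Aqp2, the water channel of principal cells, was listed at 0 in all 7 groups. Of 12 proximal tubule markers, Hnf4a, Slc13a3, Slc27a2, Slc34a1 and Slc22a8 were listed at 0 in all 7 groups. The whole list summed to 7.06 to 8.69 TPM in polyclonal WT, 8.79 to 10.53 in WT5 and up to 21.9 in the subclones. Lrp2 averaged 1.51 TPM in polyclonal WT, 3.71 TPM in WT5 and 8.21 TPM in subclone 1, and Ass1 averaged 2.41, 4.54 and 9.9 TPM. Aqp1 went the other way, at 4.12 TPM in polyclonal WT, 0.825 TPM in WT5 and 0.51 to 2.015 TPM in the subclones. Umod, a marker of the thick ascending limb, averaged 0.068 TPM in polyclonal WT, 3.38 TPM in WT5 and 11.6 TPM in subclone 5. Kcnj10 of the same list averaged 0.005, 0.975 and 0.49 TPM in those groups. Its other genes, Slc12a1, Cldn10 and Cldn16, averaged at most 0.0175 TPM in any group. The collecting duct genes Avpr2 and Gata3 averaged 10.6 and 4.08 TPM in polyclonal WT and at most 0.2 TPM in any clone. Others of the 15 genes on that list did not fall in this way. Hoxb7 averaged 68 TPM in polyclonal WT and 45.3 to 63.2 TPM in the clones. Tfcp2l1 averaged 8.04 TPM and 10.2 to 13.8 TPM, and Hsd11b2 1.995 TPM and 3.95 to 6.26 TPM. The list summed to 98.87 to 111.79 TPM in polyclonal WT libraries and 73.61 to 77.75 TPM in WT5. The part of these differences in the results below was not tested. Endothelial markers summed to at most 0.29 TPM in any library. TPM is measured over bulk cells, so fewer cells expressing a gene and less RNA per cell cannot be told apart.

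Amino acid transporters are grouped by mechanism. The Slc1 family takes up glutamate, or exchanges small neutral amino acids, with sodium. Heteromeric transporters join a heavy chain, Slc3a2 (CD98) or Slc3a1, to a light chain of the Slc7 family that sets which amino acids are carried. Cationic transporters, also of the Slc7 family, take up arginine and lysine without a heavy chain. Slc38 members carry glutamine and other neutral amino acids with sodium, Slc36 members use protons, and Slc43 members carry large neutral amino acids. In renal epithelia such proteins reclaim amino acids, and in medullary cells they also take part in osmotic balance. Several are known target genes of ATF4, the transcription factor of the amino acid response.

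Of the 45 genes, 21 averaged at least 0.5 TPM over all libraries and were tested. The other 24 were not tested, and 8 of them were listed at 0 in all libraries, namely Slc7a2, Slc7a10, Slc7a13, Slc38a8, Slc38a11, Slc36a3, Slc36a1os and Slc36a3os. The remaining 16 reached at most 0.49 TPM in any library. They were the glutamate transporters Slc1a2, Slc1a3, Slc1a6 and Slc1a7, the heavy chain Slc3a1, the light chains Slc7a8, Slc7a9, Slc7a12 and Slc7a15, the cationic transporter Slc7a3, and Slc7a14, Slc36a2, Slc38a4, Slc38a5, Slc43a1 and Slc43a3. Slc43a3, which carries nucleobases, read 0.24, 0.06, 0.25 and 0.25 TPM in polyclonal WT and was listed at 0 in the other 24 libraries. Of the tested genes, Slc7a6os is matched by symbol only, since it lies on the opposite strand to Slc7a6 and encodes no transporter.

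**Figure D1:**
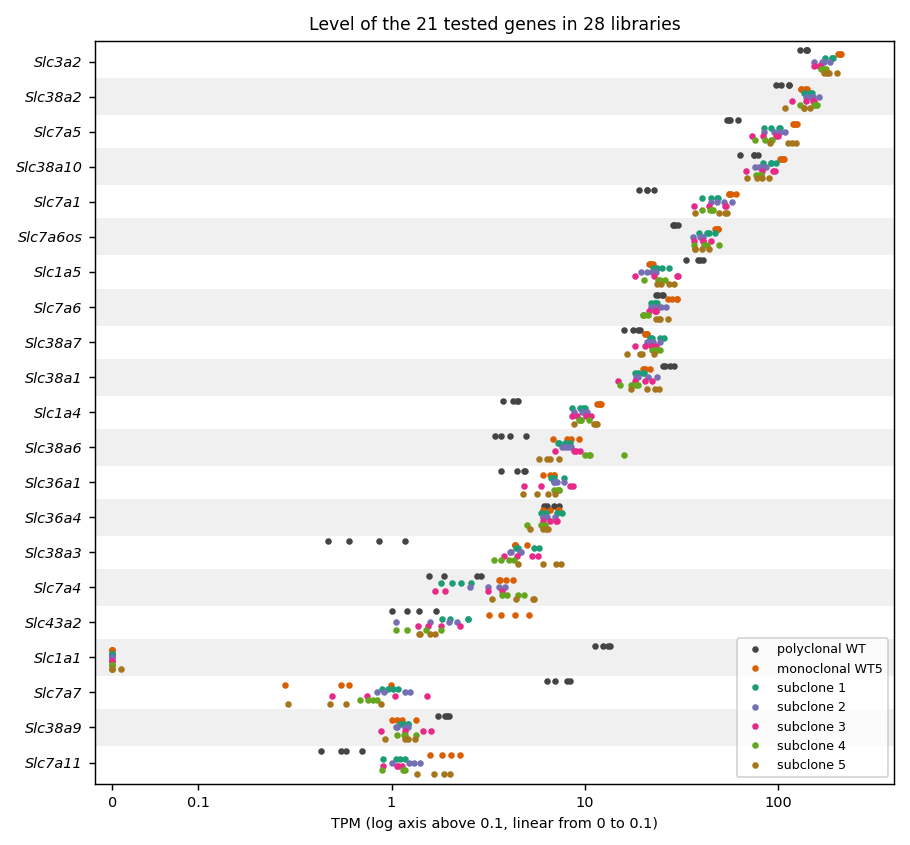
TPM of the 21 tested genes (rows, ordered by mean over all libraries) in each of 28 libraries, on an axis that is logarithmic above 0.1 TPM and linear below. Each point is 1 library and colour marks the group. Slc3a2 leads in all groups, and Slc1a1 is above 10 TPM in polyclonal WT only.

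A small number of genes held most of the transporter RNA. Without the 3 opposite-strand genes, the members summed to 551 ± 20.2 TPM (SD, n = 4) in polyclonal WT, 771 ± 12.2 TPM in WT5, and means of 657 to 699 TPM in the subclones. Slc3a2, Slc38a2, Slc7a5 and Slc38a10 together made up 68.1% of that sum in polyclonal WT, 74.1% in WT5 and 72.6 to 74.2% in the subclones. Of the 45 genes, 13 passed 10 TPM in at least 1 group mean. Within the subclones, replicate 2 of subclone 3 and replicate 1 of subclone 5 had the lowest sums, 561 and 597 TPM, and on the TPM scale they were the lowest of their 4 libraries for 17 and 19 of the 21 tested genes. After centring on the library median it was 11 for each.

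The comparison of WT5 with polyclonal WT addresses how far a clone differs from the population it came from. It was made on log2(TPM + 0.1) minus the library's median with limma, and a gene was called at a Benjamini-Hochberg adjusted p below 0.01 and a difference above 1 in size. WT5 had higher Slc38a3, Slc7a11, Slc43a2, Slc1a4 and Slc7a1 and lower Slc1a1, Slc7a7 and Slc1a5 than polyclonal WT. These were 8 of the 21 tested genes, against 25.5% of all 13464 genes tested. By direction they were 5 higher, against 13.1% of all genes, and 3 lower, against 12.4%. Slc1a1, among the lower genes in these counts and those below, passed the filter on low values through polyclonal WT alone. Its place among them was bound to follow. By the adjusted p alone 16 of 21 differed, against 69.0% of all genes, of which 11 were higher (35.7% of all genes) and 5 lower (33.3%). The median difference was 0.35 over the 21 genes and 0.03 over all genes. Without centring, the median of all genes moved to 0.25, the calls over all genes split 2386 higher to 1376 lower in place of 1762 to 1666, and the members split 7 to 2. Of the 21 genes, 7 were higher and 5 lower in each of the 24 clonal libraries than in every polyclonal WT library, against 25.9% and 24.8% of all genes, on TPM centred in the same way.

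**Figure D2:**
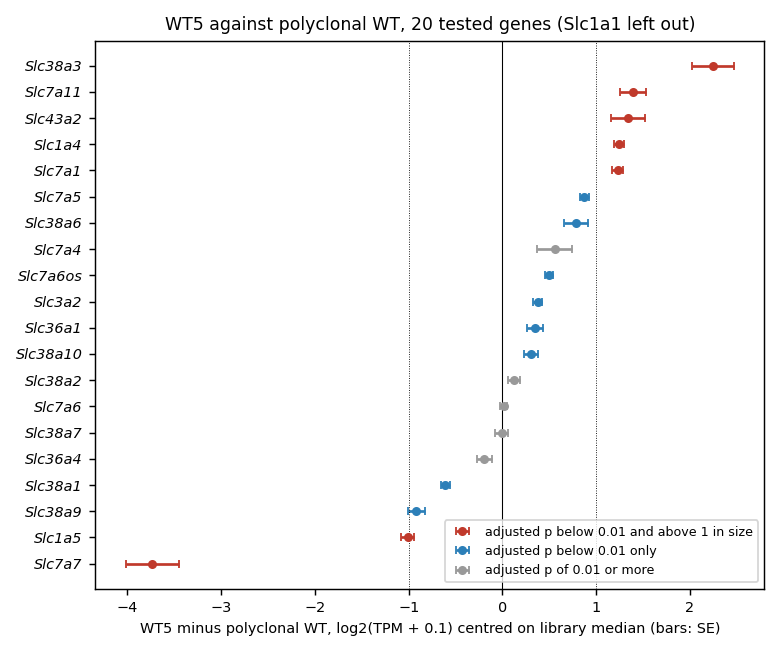
Difference between WT5 and polyclonal WT (x axis, log2(TPM + 0.1) centred on the library median; points are estimates, bars SE, n = 4 libraries per group) for 20 tested genes; Slc1a1, listed at 0 in WT5, is left out. Dotted lines mark a difference of 1 in size. Slc38a3 lies farthest right at 2.24 and Slc7a7 farthest left at -3.73.

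Among the Slc1 family, the glutamate transporter gene Slc1a1 (ENSMUSG00000024935, chr19:28835049-28913960, plus strand, GRCm38) was present in polyclonal WT only. It encodes the sodium-dependent carrier of glutamate, aspartate and cysteine of the renal epithelium and of neurons. Polyclonal WT libraries read 11.29, 12.44, 13.21 and 13.54 TPM. Slc1a1 was listed at 0 in all libraries of WT5 and of subclones 1 to 4 and in 3 of 4 of subclone 5, the other reading 0.01 TPM. No fold change is given because WT5 was at 0. The adjusted p by limma was 2.7e-11, but the gene passed the filter on low values through polyclonal WT alone, so a difference was bound to follow. Genes beside it on chromosome 19 were expressed in all groups. Glis3 averaged 50.7 TPM in polyclonal WT, against 71.2 TPM in WT5, and Plpp6 averaged 39.2 and 25.3 TPM. An antisense gene, 4430402I18Rik, shared 30.1% of the 50-base stretches of the longest Slc1a1 transcript and read 0.81 to 1.35 TPM in polyclonal WT and 0.19 to 0.59 TPM in WT5. Of 171 genes of translation and the proteasome, 4 were listed at 0 in all polyclonal WT libraries and 2, Eif2c5 and Psma8, in all WT5 libraries.

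The other expressed Slc1 members, which exchange neutral amino acids, moved in opposite directions. Slc1a4 (chr11:20302180-20332713, minus strand), a carrier of serine, alanine and cysteine, read 4.46, 3.77, 4.52 and 4.27 TPM in polyclonal WT, against 11.89, 11.96, 12.20 and 11.54 TPM in WT5. Slc1a4 read 9.48, 9.81, 8.56 and 9.99 TPM in subclone 1, 9.88, 8.79, 9.71 and 10.23 in subclone 2, and 10.11, 8.62, 9.07 and 10.81 in subclone 3. It read 9.56, 10.51, 9.60 and 9.29 TPM in subclone 4 and 8.80, 11.61, 11.45 and 11.22 in subclone 5. No library of WT5 or a subclone came near polyclonal WT. Slc1a4 was higher in WT5 by 1.24 (log2, SE 0.05, adjusted p = 2.7e-07 by limma). Slc1a5 (chr7:16781340-16798274, plus strand), the main sodium-dependent glutamine exchanger of dividing cells, read 33.54, 38.73, 39.47 and 41.05 TPM in polyclonal WT. In WT5 it read 22.57, 22.04, 21.55 and 21.81 TPM, below every polyclonal WT library. Slc1a5 read 22.49, 25.09, 23.54 and 27.35 TPM in subclone 1, 22.30, 19.44, 21 and 23.50 in subclone 2, and 30.44, 18.11, 22.79 and 30.09 in subclone 3. It read 26.09, 24.02, 20.30 and 24.63 TPM in subclone 4 and 23.66, 29.12, 24.92 and 27.43 in subclone 5. The difference of -1.01 (log2, SE 0.07, adjusted p = 3.9e-06 by limma) lay just past the threshold on size and was -0.79 without centring, so the call rested on the scaling. It also fell under that threshold without polyclonal WT replicate 2 (-0.99), polyclonal WT replicate 4 (-0.97) or WT5 replicate 3 (-0.99). Over the family, summed TPM was 55.1 ± 4.20 (SD, n = 4) in polyclonal WT and 33.9 ± 0.479 in WT5.

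**Figure D3:**
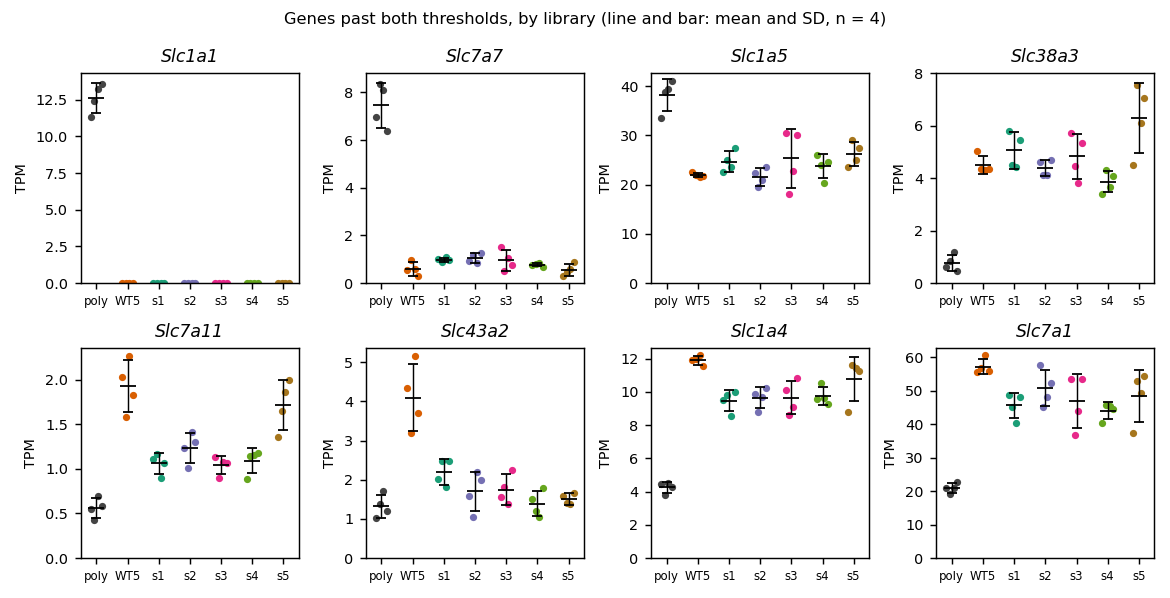
TPM (y axes, from 0) of the 8 genes called between WT5 and polyclonal WT in polyclonal WT (poly), WT5 and subclones 1 to 5 (s1 to s5); points are libraries, lines and bars the mean and SD of 4. Slc1a1 is absent outside polyclonal WT, Slc7a7 is low in all clones, and Slc43a2 is above 3 TPM in WT5 only.

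Heavy and light chains of the heteromeric transporters made up a large part of the transporter RNA, and the make-up of the light chains differed between polyclonal WT and WT5. The heavy chain Slc3a2 (chr19:8706882-8723369, minus strand) read 129.66, 141.15, 141.32 and 139.21 TPM in polyclonal WT, against 210.84, 208.56, 210.42 and 203.28 TPM in WT5. It was higher by 0.37 (log2, SE 0.04, adjusted p = 0.000102 by limma), and its libraries did not overlap. Slc3a2 read 191.96, 190.37, 174.62 and 189.19 TPM in subclone 1, 186.30, 153.21, 168.06 and 172.97 in subclone 2, and 163.14, 153.95, 165.30 and 165.83 in subclone 3. It read 173.19, 176.38, 167.13 and 171.21 TPM in subclone 4 and 173.10, 183.22, 180.21 and 201.53 in subclone 5. The subclones lay between, with means of 162 to 187 TPM. The other heavy chain, Slc3a1, which joins Slc7a9 to take up cystine and dibasic amino acids in the proximal tubule, was close to 0. Slc3a1 read 0.05, 0.06, 0.07 and 0.08 TPM in polyclonal WT. In WT5 it read 0.04, 0.07, 0.04 and 0.21 TPM. Slc3a1 read 0.14, 0.10, 0.23 and 0.22 TPM in subclone 1, 0.12, 0.20, 0.13 and 0.06 in subclone 2, and 0.30, 0.14, 0.08 and 0.35 in subclone 3. It read 0.12, 0.23, 0.22 and 0.23 TPM in subclone 4 and 0.16, 0.31, 0.13 and 0.16 in subclone 5. It shared 24.84% of its 50-base stretches with its neighbour Prepl, which averaged 25.1 TPM in polyclonal WT, so these low values are uncertain. Slc7a9 itself reached at most 0.07 TPM.

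Slc7a5 (chr8:121881150-121907694, minus strand), the light chain of the system L exchanger for leucine and other large neutral amino acids, was the leading light chain in all groups. It read 54.71, 55.47, 62.30 and 56.58 TPM in polyclonal WT, against 124.97, 119.03, 124.46 and 120.71 TPM in WT5. Slc7a5 read 102.95, 92.30, 84.19 and 101.05 TPM in subclone 1, 108.83, 84.29, 94.83 and 102.52 in subclone 2, and 99.90, 73.39, 83.28 and 97.84 in subclone 3. It read 76.36, 91.97, 85.41 and 93.00 TPM in subclone 4 and 91.36, 118.01, 112.94 and 123.46 in subclone 5. The difference was 0.87 (log2, SE 0.05, adjusted p = 7.6e-07 by limma), under the threshold on size and 1.09 without centring. Slc7a6, a light chain that exchanges cationic for neutral amino acids, averaged 24.5 ± 0.944 TPM in polyclonal WT, against 28.9 ± 1.49 TPM in WT5 (SD, n = 4). On the centred scale that was a difference of 0.01 (log2, SE 0.04, adjusted p = 0.767 by limma).

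Slc7a7 (chr14:54369442-54417780, minus strand), the light chain of the basolateral exporter of cationic amino acids in absorbing epithelia, fell in the clone. Polyclonal WT read 6.98, 8.37, 8.11 and 6.39 TPM. WT5 read 0.55, 0.99, 0.60 and 0.28 TPM. Slc7a7 read 1.02, 0.89, 1.08 and 0.96 TPM in subclone 1, 0.91, 1.18, 0.84 and 1.25 in subclone 2, and 1.52, 0.49, 1.04 and 0.75 in subclone 3. It read 0.76, 0.80, 0.84 and 0.69 TPM in subclone 4 and 0.29, 0.48, 0.58 and 0.88 in subclone 5. No library of any clone overlapped polyclonal WT. The difference was -3.73 (log2, SE 0.29, adjusted p = 7.1e-06 by limma), a 13.3-fold lower level on the centred log2(TPM + 0.1) scale. The pseudocount understates changes of low genes. Centring acts the other way on a fall, since it moved the median of all genes from 0.25 to 0.03. Mean TPM was 7.46 in polyclonal WT and 0.605 in WT5. Slc7a7 was also the gene called on the z-score scale the study used, at -1.29 by limma. There 1 of 22 members passed, against 5.43% of 13723 genes. That test took only genes above 0 TPM in every library of WT5 and polyclonal WT. Slc1a1 was therefore not tested on it, while Slc3a1 and Slc7a3 were. Slc7a7 shared 8.12% of its 50-base stretches with its neighbour Oxa1l, which averaged 41.3 TPM in polyclonal WT, against 25.8 TPM in WT5. As a share of the summed light chains that pair with Slc3a2, Slc7a7 made up 8.31% ± 0.968 (SD, n = 4) in polyclonal WT and 0.394% ± 0.193 in WT5. Slc7a5 made up 63.8% ± 0.573 and 79.6% ± 1.02. Summed light chains per Slc3a2 came to 0.652 ± 0.0277 in polyclonal WT and 0.738 ± 0.00967 in WT5. This ratio was not higher in all clones. It averaged 0.644 in subclone 1 and 0.633 in subclone 4, against 0.728, 0.699 and 0.749 in subclones 2, 3 and 5.

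**Figure D4:**
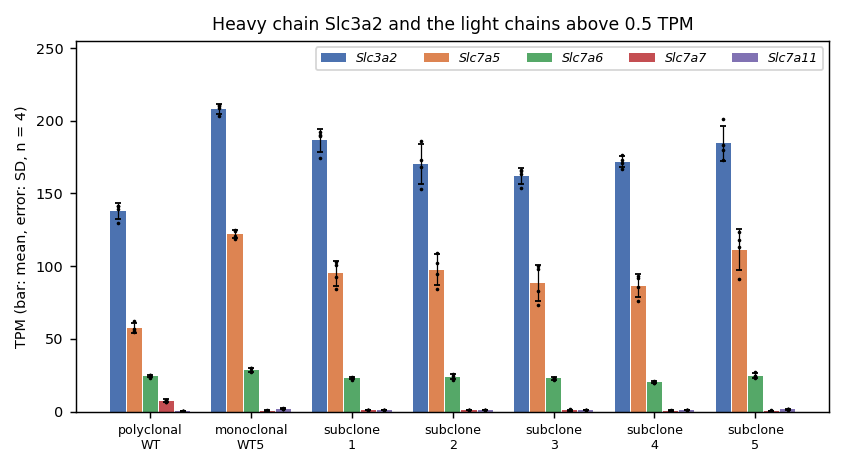
TPM (y axis, from 0) of the heavy chain Slc3a2 and of its light chains Slc7a5, Slc7a6, Slc7a7 and Slc7a11 in 7 groups; bars are means, error bars SD, dots the 4 libraries. Slc3a2 and Slc7a5 are lowest in polyclonal WT and highest in WT5, while Slc7a7 averages 7.46 TPM in polyclonal WT and lies near 0 in the other groups.

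Slc7a11 (chr3:49892526-50443614, minus strand), the light chain of the cystine and glutamate exchanger that supplies cysteine for glutathione, was low in all groups and higher in WT5. It read 0.55, 0.43, 0.70 and 0.58 TPM in polyclonal WT, against 2.03, 1.58, 2.26 and 1.83 TPM in WT5. The difference was 1.39 (log2, SE 0.14, adjusted p = 3.3e-05 by limma), and 0.69 with a pseudocount of 1, which is under the threshold on size. Slc7a11 read 1.11, 1.17, 0.90 and 1.06 TPM in subclone 1, 1.23, 1.01, 1.41 and 1.3 in subclone 2, and 1.13, 0.90, 1.08 and 1.07 in subclone 3. It read 0.89, 1.14, 1.16 and 1.18 TPM in subclone 4 and 1.36, 1.65, 1.86 and 2.00 in subclone 5. All these were above polyclonal WT.

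Promoter sequence was looked at for the genes of the amino acid response, in RefSeq windows of GRCm38.p6 from 250 bases before to 50 after each start. Windows were found for 34 of the 45 genes and 16 of the 21 tested. TGATGNAA, the letters of the C/EBP-ATF response element bound by ATF4, was searched on both strands and was held by 4.51% of all genes with a window and by 3 of the 16 tested members, namely Slc1a4, Slc7a7 and Slc7a11. TGACNNNGC, the core of the antioxidant response element, is a separate set of letters and was held by 13.99% of all genes and by 4 of the 16, namely Slc7a1, Slc7a6, Slc36a1 and Slc38a2. The Slc7a11 promoter held TGATGNAA in both orientations, at -66 and -47 from the start with 11 bases between, as shown in capitals at chr3:50443645-50443687 on the minus strand. Slc7a7, which fell, has several starts and held it at -141 and at -1 from the same start. The bases at -1 are the same ones that lie at -243 from another start. The match at -141 is shown at chr14:54418062-54418101 on the minus strand. These are shown because Slc7a11 rose and Slc7a7 fell between the same groups.
Slc7a11: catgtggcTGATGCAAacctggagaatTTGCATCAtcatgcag
Slc7a7: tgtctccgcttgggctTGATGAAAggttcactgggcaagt
A match describes these letters only, and binding was not measured.

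Among the cationic transporters, Slc7a1 (chr5:148327410-148399904, minus strand), the broadly expressed carrier of arginine and lysine, was higher in all clones. It read 21.04, 19.12, 20.92 and 22.75 TPM in polyclonal WT, against 55.67, 56.89, 60.69 and 55.87 TPM in WT5. The difference was 1.23 (log2, SE 0.06, adjusted p = 4.0e-07 by limma). Slc7a1 read 48.62, 45.24, 40.40 and 48.31 TPM in subclone 1, 57.74, 45.18, 48.27 and 52.42 in subclone 2, and 53.47, 36.82, 43.88 and 53.57 in subclone 3. It read 40.33, 45.92, 45.39 and 44.70 TPM in subclone 4 and 37.40, 53.01, 49.46 and 54.51 in subclone 5. All these were above polyclonal WT. Slc7a4, whose transport activity is not established, read 1.56, 2.90, 2.78 and 1.87 TPM in polyclonal WT, against 3.66, 4.26, 3.91 and 3.6 TPM in WT5. Its difference of 0.56 (log2, SE 0.19) did not pass, at an adjusted p of 0.0265 by limma. Slc7a3 was not tested on that scale and averaged 0.335 TPM in polyclonal WT, against 0.09 TPM in WT5. Slc7a2, the inducible cationic transporter, was at 0 throughout.

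The Slc38 family carried the glutamine transporters and had the largest summed level of the transporter classes, 232 ± 7.76 TPM in polyclonal WT, against 296 ± 4.87 TPM in WT5 (SD, n = 4). Slc38a3 (chr9:107650634-107669530, minus strand), the glutamine carrier that the kidney uses for ammonia production, read 0.60, 0.86, 1.17 and 0.47 TPM in polyclonal WT. In WT5 it read 5.03, 4.35, 4.33 and 4.36 TPM. Slc38a3 read 5.81, 4.52, 4.43 and 5.47 TPM in subclone 1, 4.62, 4.13, 4.11 and 4.69 in subclone 2, and 5.73, 4.45, 3.82 and 5.35 in subclone 3. It read 3.40, 4.31, 3.67 and 4.07 TPM in subclone 4 and 4.51, 7.55, 6.10 and 7.06 in subclone 5. No clonal library overlapped polyclonal WT. The difference was 2.24 (log2, SE 0.23, adjusted p = 3.65e-05 by limma), the largest rise among the members. Slc38a2 (chr15:96687392-96699730, minus strand), the neutral amino acid carrier that responds to amino acid supply and to hypertonicity, was highly expressed and did not pass the test. It read 113.35, 97.83, 103.01 and 113.84 TPM in polyclonal WT, against 131.34, 141.97, 138.64 and 131.66 TPM in WT5. Slc38a2 read 150.36, 148.17, 136.72 and 145.53 TPM in subclone 1, 163.04, 139.11, 146.36 and 152.03 in subclone 2, and 153.28, 118.75, 139.44 and 151.21 in subclone 3. It read 130.31, 158.43, 157.18 and 153.13 TPM in subclone 4 and 109.08, 136.62, 136.63 and 145.51 in subclone 5. Libraries of WT5 and polyclonal WT were apart on the TPM scale and overlapped once centred, with a difference of 0.13 (log2, SE 0.06, adjusted p = 0.0939 by limma).

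Of the other Slc38 genes, Slc38a6 and Slc38a10 were higher in WT5 by the adjusted p alone, at 0.78 and 0.30 (log2). Slc38a10 averaged 73.3 ± 6.84 TPM in polyclonal WT, against 105 ± 2.34 TPM in WT5, and its adjusted p was 0.012 to 0.017 without any one WT5 library and 0.0143 without polyclonal WT replicate 3. Slc38a6 averaged 4.05 ± 0.682 and 8.20 ± 1.05 TPM, but 69.88% of the 50-base stretches of its longest transcript occur in other genes, so its level is uncertain. Slc38a1, a glutamine carrier of the plasma membrane, and Slc38a9, the lysosomal sensor of arginine upstream of mTORC1, were lower by 0.61 and 0.92 respectively. Slc38a9 averaged 1.90 ± 0.103 TPM in polyclonal WT, against 1.14 ± 0.147 TPM in WT5. Slc38a7, the lysosomal exporter of glutamine, did not differ past the threshold (adjusted p = 0.905 by limma).

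In the proton-coupled Slc36 family, Slc36a1, a lysosomal exporter of small amino acids, averaged 4.46 ± 0.559 TPM in polyclonal WT, against 6.62 ± 0.373 TPM in WT5. It was higher by 0.35 (log2, SE 0.09, adjusted p = 0.00684 by limma), and leaving out any one WT5 library took the adjusted p to between 0.0121 and 0.0204, as did leaving out polyclonal WT replicate 2 (0.0148). Slc36a4 averaged 6.70 and 6.82 TPM and did not pass (adjusted p = 0.0536). Slc7a6os rose by 0.49 by the adjusted p alone.

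Slc43a2 (chr11:75531694-75577575, plus strand), a facilitative carrier of leucine and other large neutral amino acids, was higher in WT5 than in polyclonal WT and in the subclones. Slc38a10 and, on the TPM scale, Slc3a2 and Slc7a6 also had this pattern at smaller sizes. Slc7a1, Slc7a5, Slc7a11, Slc1a4, Slc36a4 and Slc7a6os also had their highest group mean TPM in WT5, but with overlap between libraries. Slc43a2 read 1.01, 1.39, 1.70 and 1.20 TPM in polyclonal WT, against 4.34, 3.19, 5.15 and 3.70 TPM in WT5. The difference was 1.34 (log2, SE 0.18, adjusted p = 0.000208 by limma), and 0.91 with a pseudocount of 1. The subclones read 2.01, 2.49, 1.82 and 2.48 TPM (subclone 1), 1.59, 1.06, 2.19 and 1.99 TPM (subclone 2), 1.55, 1.81, 1.37 and 2.26 TPM (subclone 3), 1.51, 1.20, 1.06 and 1.80 TPM (subclone 4), and 1.58, 1.40, 1.38 and 1.67 TPM (subclone 5). All 20 were below the lowest WT5 library, and those of subclone 5 lay within the range of polyclonal WT.

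The comparisons of the subclones with WT5 address how much a clone changes when it is cloned again. They share the 4 WT5 libraries. Of 21 tested genes, 0 were called in subclone 1 (against 2.73% of all genes), and 1 each in subclones 2 (2.44%), 3 (3.74%), 4 (4.48%) and 5 (3.49%). In subclone 1, 13 of the 21 had an unadjusted p below 0.05, against 6313 of all 13464 genes. The called gene was Slc43a2 in each case, at -1.18, -1.08, -1.41 and -1.26 in subclones 2 to 5 (log2, SE 0.20), and -0.82 in subclone 1. The limma adjusted p was 0.00277 in subclone 1 and at most 0.00019 in the others. In subclone 3 the difference was -0.98 without WT5 replicate 3 and -0.99 without subclone 3 replicate 3, both under the threshold on size. On the z-score scale 0 of 22 members were called in any subclone, against 0.152%, 0.144%, 0.173%, 0.202% and 0.173% of 13860 genes. An unadjusted p below 0.05 by limma was reached by 7 to 16 members, against 6406 to 8184 of the 13860 genes.

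By the adjusted p alone, 9, 8, 7, 11 and 4 of the 21 genes differed from WT5 in subclones 1 to 5, against 27.8%, 28.1%, 33.0%, 37.5% and 32.1% of all genes. Lower members numbered 8, 7, 7, 8 and 2, against 14.9%, 14.7%, 16.9%, 18.4% and 16.6% of all genes. Slc7a5 was lower by 0.33, 0.27, 0.38 and 0.41 (log2) in subclones 1 to 4 and differed by -0.03 in subclone 5 (adjusted p = 0.675 by limma). Slc7a11 was lower by 0.76, 0.54, 0.72 and 0.67 in subclones 1 to 4 and differed by -0.05 in subclone 5 (adjusted p = 0.72). Slc38a10 was lower in all 5 subclones, by 0.16 to 0.31. Subclone 5 had higher Slc38a3 (0.56) and Slc1a5 (0.36) than WT5.

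The comparison among the 5 subclones rests on a single table and is not touched by the difference between tables. An F test by limma over 20 libraries called 1 of 21 genes, Slc7a4, at an adjusted p below 0.01 and a range of means above 1, against 4.39% of all genes. Without the threshold on the range 8 passed, against 24.9% of all genes. Slc7a4 (chr16:17572018-17583214, minus strand) had a range of 1.12 (log2, adjusted p = 0.000342). It read 1.80, 2.57, 2.28 and 2.05 TPM in subclone 1, 3.88, 2.55, 3.17 and 3.62 in subclone 2, and 3.16, 1.89, 1.68 and 3.72 in subclone 3. It read 4.52, 3.75, 3.95 and 4.83 TPM in subclone 4 and 3.33, 5.47, 5.37 and 4.41 in subclone 5. Subclones 4 and 5 lay above subclone 1 in all libraries, while subclones 2 and 3 overlapped with others. The other 7 had ranges of 0.80 (Slc38a6), 0.71 (Slc7a11), 0.69 (Slc38a3), 0.38 (Slc7a5), 0.30 (Slc7a6), 0.25 (Slc1a4) and 0.25 (Slc38a7). Slc38a7 lost its call in 17 of the 20 fits that left out a library, and Slc1a4 without replicate 2, 3 or 4 of subclone 5, at adjusted p up to 0.0339 and 0.0239.

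Each subclone was then set against the mean of the other 4 in the same fit. By the adjusted p alone, 1, 0, 0, 3 and 8 of the 21 genes stood out in subclones 1 to 5, against 4.63%, 6.25%, 5.06%, 18.2% and 15.1% of all genes. By unadjusted p below 0.05, 2 members did so in subclone 2 and 5 in subclone 3, against 3115 and 2471 of all 13464 genes. In subclone 1 the gene was Slc7a4, lower by 0.74. In subclone 4, Slc38a6 was higher by 0.60 and Slc38a3 and Slc7a6 lower by 0.37 and 0.20. Slc38a6 in subclone 4 read 15.97, 10.52, 10.01 and 10.64 TPM, above the 5.77 to 9.42 TPM of the other subclones.

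Subclone 5 had 6 higher and 2 lower members, against 7.25% and 7.84% of all genes. The higher ones were Slc7a4 (0.66), Slc7a11 (0.62), Slc38a3 (0.49), Slc7a5 (0.31), Slc1a4 (0.19) and Slc7a6 (0.17), and the lower ones Slc38a6 (-0.40) and Slc38a7 (-0.18), all as log2 differences. Slc7a11 read 1.36, 1.65, 1.86 and 2.00 TPM in subclone 5, against 0.89 to 1.41 TPM in the other 4, with SE 0.07 and an adjusted p of 5.2e-06 by limma. Slc7a5 read 91.36, 118.01, 112.94 and 123.46 TPM, against 73.39 to 108.83 TPM, so that replicate 1 of subclone 5 lay inside the range of the others on the TPM scale. The count of 8 was 2 without centring on the library median and 4 without replicate 3 of subclone 5. Slc7a4 did not pass without replicate 2 or 3 of subclone 5, and Slc7a6, Slc38a6 and Slc38a7 did not pass without replicate 1, 3 or 4.

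**Figure D5:**
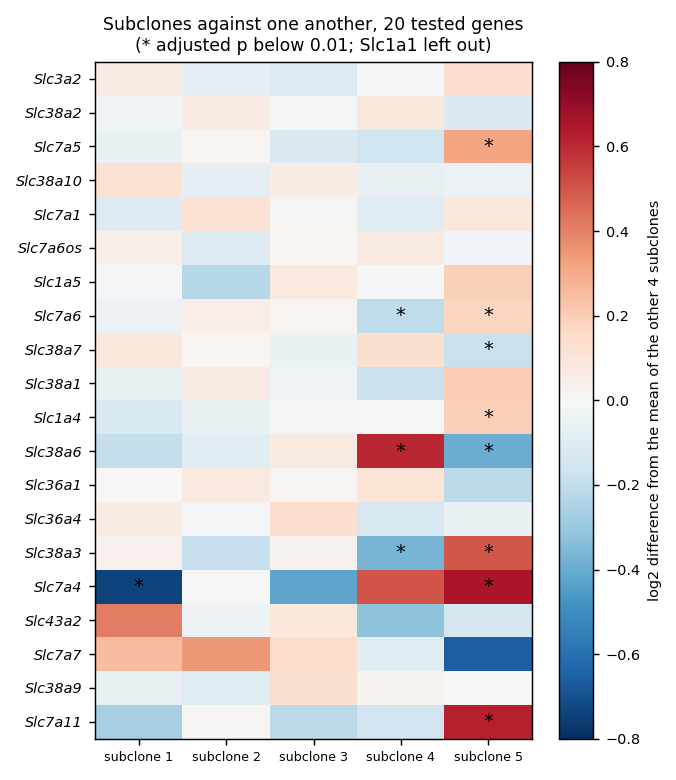
Difference of each subclone (columns) from the mean of the other 4 for 20 tested genes (rows, ordered by mean TPM), as colour on the log2(TPM + 0.1) scale centred on the library median; stars mark an adjusted p below 0.01, and Slc1a1 is left out. Subclone 5 holds 8 stars, subclone 4 holds 3 and subclone 1 holds 1.

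Genes linked to amino acid supply were taken from 4 further lists. Of 32 genes of the amino acid response and ATF4 targets, none of them a transporter, 13 were called higher and 1 lower in WT5 than in polyclonal WT, against 13.1% and 12.4% of all genes. By the adjusted p alone 27 were higher and 1 lower, against 35.7% and 33.3%, with a median of 0.73, against 0.03 over all genes. Those that differed most were Stc2, Gdf15, Fgf21 and Chac1. Stc2, a secreted glycoprotein, averaged 0.34 TPM in polyclonal WT, against 75.9 TPM in WT5, and Chac1, which degrades glutathione, averaged 8.16 and 73.0 TPM. In subclone 5 against the other 4, 13 of the 32 were higher and 2 lower by the adjusted p alone, against 7.25% and 7.84% of all genes. Among them were Cth at 0.90 and Asns, the asparagine synthetase, at 0.44. Between the first groups Cth went the other way, with 5.135 TPM in polyclonal WT, against 2.605 TPM in WT5. In subclone 4, 8 were higher and 6 lower, against 9.81% and 8.44%, and Asns was at -0.53. Subclones 1 to 3 had 2, 3 and 2 higher, against 2.58%, 3.10% and 2.30% of all genes. They had 4, 3 and 5 lower, against 2.05%, 3.15% and 2.76%.

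Amino acid transporters of other families numbered 24 tested of 40, of which 8 were called higher and 2 lower in WT5, against 13.1% and 12.4% of all genes. Slc16a10, an aromatic amino acid carrier, averaged 0.17 TPM in polyclonal WT, against 6.71 TPM in WT5, and Slc6a17, a neutral amino acid carrier, averaged 0.678 and 15.6 TPM. Slc25a13, a mitochondrial aspartate and glutamate carrier, was lower, with 125 TPM in polyclonal WT and 45.9 in WT5 (-1.66, named after its value was seen). Of 34 tested genes of mTORC1 amino acid sensing, 1 was called higher (Depdc5, 1.35) and 2 lower (Sesn1, -2.08, and Castor1, -1.91), against 13.1% and 12.4% of all genes, and the median was -0.06. The adjusted p alone gave 9 higher and 14 lower, against 35.7% and 33.3%. Of 22 tested genes of cystine, glutathione and glutamine metabolism, 6 were called higher and 1 lower, against 13.1% and 12.4% of all genes. Among them were Glul, the glutamine synthetase, with 3.85 TPM in polyclonal WT, against 101 TPM in WT5, and Cbs, which makes cystathionine, with 2.71 and 167 TPM. This list shares genes, among them Chac1 and Cth, with that of the amino acid response, so their counts are not separate.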

How the data were processed

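RNA sequencing of 28 mIMCD-3 libraries was used. The TPM values were made and deposited by the authors with STAR 2.7.3a, RSEM 1.3.1 and CASAVA 1.8 on GRCm38 and Ensembl annotation, in a pair of tables joined here by gene identifier. TPM keeps no depth, the lowest value above 0 is 0.01, and no counting error can be given. Symbols were found for 45143 of 45706 identifiers.

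Samples were grouped by label. log2(TPM + 0.1) was centred on each library's median over genes with a mean of at least 0.5 TPM and fitted with limma 3.58.1 in R 4.3.3 across all genes tested, with Benjamini-Hochberg adjustment and two-sided tests. WT5 and polyclonal WT were fitted on their 8 libraries, subclones against WT5 on 24, and subclones among themselves on 20. z-scores of log2(TPM) within libraries, as in the methods of the study, were tested likewise. Data were simulated for WT5 against polyclonal WT over 13101 genes. Of genes changed by 1.5 (log2) 89.69% were recovered, and of those changed by 3 95.96%, with 0 false calls. Most genes were left unchanged there, and no difference in read type or shift of whole libraries was put in. The 0 false calls therefore do not bear on errors from those sources.

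The members, lists and tests were chosen with earlier results of these data known. Values in every library are given for called members, heavy chains and the 3 members of highest mean. Other members are given by ranges and counts, and up to 4 genes of each other list are named by size of difference. Counts by the adjusted p alone were added after seeing the data. Coordinates are from the GENCODE annotation of GRCm38 and promoter sequences from RefSeq. Replicate numbers were not taken to pair libraries, since in no pair of groups compared did all same-numbered libraries correlate above 0.1. Alternatives were the pseudocount, the filter, the centring, a block by replicate number and each library left out in turn.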

Additional observations from a re-analysis of the deposited data

Results flagged for a closer look

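In 8 of 142 groups of 4 libraries examined, a library of a tested gene lay far from the other 3 by Dixon's criterion, where chance alone gives about 5% of groups. Slc1a1 read 0.01 TPM in subclone 5 replicate 4 and 0 in the other 3. Slc1a4 read 8.80 TPM in subclone 5 replicate 1, against 11.22 to 11.61 in the others, and Slc38a3 read 5.03 TPM in WT5 replicate 1, against 4.33 to 4.36. Slc38a6 read 15.97 TPM in subclone 4 replicate 1, against 10.01 to 10.64, and Slc3a2 read 174.62 TPM in subclone 1 replicate 3, against 189.19 to 191.96. Slc7a11 read 0.89 TPM in subclone 4 replicate 1, against 1.14 to 1.18. Slc7a6 read 21.59 TPM in subclone 3 replicate 2, against 23.12 to 23.43, and 21.31 TPM in subclone 4 replicate 2, against 19.90 to 20.13.

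The log2 means of 8 genes differed among the 5 subclones by the F test of limma at an adjusted p below 0.01. Their ranges were 1.12 for Slc7a4, 0.80 for Slc38a6, 0.71 for Slc7a11, 0.69 for Slc38a3, 0.38 for Slc7a5, 0.30 for Slc7a6, 0.25 for Slc1a4 and 0.25 for Slc38a7.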

How the results depend on the processing

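Between WT5 and polyclonal WT, the 8 members called became 5 with a pseudocount of 1 and 7 to 8 with a library left out. The count became 2 with a mean of at least 5 TPM and 15 with no filter on low values. The filter also sets which members and genes are tested, so counts under different filters, here and below, do not share a denominator. With no filter, 8908 of 23738 genes were called, 73.6% of them higher. With the main filter, 3428 of 13464 genes were called, 51.4% of them higher. The rise to 15 therefore came with a rise over all genes. With no filter, where 23738 genes set the library median and the median of all genes stood at 0.61, Slc38a1 reversed to 0.24. By the adjusted p alone, 16 became 28 with no filter and 10 at a mean of at least 5 TPM, and 14 to 16 with a library left out. On z-scores the 1 call stayed at 1 with a library left out. Among the subclones the 1 member called became 0 with a pseudocount of 1 and 0 at a mean of at least 5 TPM. By the adjusted p alone the 8 became 5 at a mean of at least 5 TPM and 4 without centring. Against WT5, the 1 call in subclones 2, 3 and 5 became 0 with a pseudocount of 1, and in subclones 2 to 5 it became 0 at a mean of at least 5 TPM, since Slc43a2 averages less. With a library left out the count was 1 to 2 in subclone 2 (2 without WT5 replicate 2) and 0 to 1 in subclone 3 (0 without WT5 replicate 3 or subclone 3 replicate 3). In subclone 5 against the other 4, 8 became 2 without centring and 4 to 10 with a library left out. The causes were not tested beyond what is stated. Other counts stayed within 1.5 times.

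With the replicate number as a block, 8 members were called between WT5 and polyclonal WT, as without it, and 15 passed by the adjusted p alone, Slc38a10 being lost (adjusted p = 0.0188 by limma). Among the subclones the block left 1 call and 6 members by the adjusted p alone, Slc1a4 and Slc38a7 being lost, and 6 in subclone 5, where Slc7a6 and Slc38a7 were lost. Same-numbered libraries of WT5 and polyclonal WT correlated at -0.033 to 0.001, and none of those 4 polyclonal WT libraries correlated best with its own number. For WT5 with subclone 2, and for subclone 4 with subclone 5, 3 of 4 did. Same-numbered libraries there correlated at 0.013 to 0.065 and at -0.071 to 0.153. Depth is unknown and limits the low genes most.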
